A study of Drosophila melanogaster with 22 samples.

Results

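The genes described here are 101 annotated long non-coding RNA (lncRNA) genes of Drosophila melanogaster, out of 13853 genes with a nanopore count in larval blood cells and lymph glands. A gene was included if its FlyBase symbol, matched through its FlyBase gene number, began with lncRNA and if it had at least 50 counts summed over 17 nanopore gene tables. The genes CR44948, CR44316, CR34335, CR43855, CR40469 and CR42491 were left out. Of 933 lncRNA genes with a nanopore count, 826 stayed below the minimum. The genes just inside were CR43803 with 51 counts and CR32385 and CR43157 with 52 each, and CR42859, CR44994 and CR45962 lay just outside with 49 each. The sum over all libraries therefore chose the members, and 13 of them reached it only through the deeply sequenced 120 h gland library. CR43334 had 467 counts but its gene number matched no symbol in the tables used, only its transcripts did, and it was not included. Gene symbols are given without the prefix lncRNA.

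All larvae were of the OreR wild-type strain. RNA came from circulating hemocytes (called blood here) and from lymph glands, the larval organ in which blood cells mature, at 96 or 120 h after egg laying, from normal larvae and from larvae infested by a parasitoid wasp 24 h (96 h larvae) or 48 h (120 h larvae) earlier. Nanopore cDNA libraries of 1 barcoding kit (SQK-PCB109) covered normal gland (n = 3) and infested gland (n = 3) at 96 h, normal blood (n = 2) and infested blood (n = 3) at 96 h, and normal blood (n = 2) and infested blood (n = 3) at 120 h. By their labels, the normal blood groups held replicates 2 and 3, and the infested blood groups replicates 1, 2 and 3. A single normal 120 h gland library was made with another kit (SQK-PCS109). In addition, 5 Illumina libraries, 1 per group, covered infested 96 h gland and the 4 blood groups. Blood cells were freed by vortexing 100 to 150 larvae of a condition with beads, after which 10 were dissected for each replicate, so a blood library pools larvae and can hold other tissue. Whether the replicates were separate collections is not given in the sources used here, nor is the sex of the larvae, and p-values measure the spread between these libraries.

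LncRNAs are transcripts without a long open reading frame, and many lie within, opposite or beside coding genes. A few fly lncRNAs have well-known roles. roX1 and roX2 are X-linked RNAs of the MSL complex, which raises transcription of the male X chromosome, and Hsromega is a heat-shock-inducible RNA that organises nuclear speckles holding RNA-binding proteins. cherub is known from neural stem cells of the fly brain, where it is inherited unequally at division, and alphagamma-element:CR32865 lies among the heat-shock genes of the right arm of the third chromosome.

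By the BDGP6.54 annotation, 30 members lay on X, 11 on 2L, 23 on 2R, 19 on 3L, 17 on 3R and 1 on chromosome 4. No other gene overlapped 47 members, 30 overlapped a gene on the opposite strand only, and 24 overlapped a gene on the same strand. A protein-coding gene overlapped 47 members, and 36 others lay within 1000 bp of one. A microRNA lay inside 10 members. Whether the nanopore counting used strand is not given in the sources used here, so reads of an overlapping partner cannot be told apart from those of the member. The longest annotated transcript had a median of 866 nt (205 to 21216), and 37 members had a single exon. Only 7 members carried a name other than a CR number.

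The 16 libraries of the barcoding kit held 356632 to 2079764 gene counts and the 120 h gland library 6223590. The members took 0.132% to 0.260% of these counts, with 61 to 99 members detected per library, and the share was highest in the 3 infested 120 h blood libraries. The median member had 158 counts in all, 9 had at least 1000 and 36 had fewer than 100. Precision was therefore low for most members: 3 counts, the limit that a count of 0 allows, corresponded to 1.44 to 8.41 CPM (counts scaled to a fixed library total) in these 16 libraries, and intervals from counts cover counting error only. The filter on low counts kept 73 members for testing and left out 28. Infested libraries were set apart by lamellocyte markers, whose summed level was 70.7 to 90.5 in normal 96 h libraries and 1412 to 3804 in infested ones, with PPO3 and atilla at 8 counts or fewer over each normal 96 h group. The normal gland had the prohemocyte markers at 2746 to 3135, against 199 to 211 in normal blood.

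Levels below are CPM after TMM scaling, and log2 changes come from 1 edgeR fit over the 16 libraries with p-values adjusted over 7076 genes. Adjusted p under 0.05 is a call. In all, 42 of the 73 tested members were called in at least 1 of 7 comparisons between groups and 31 in none. In bulk samples, fewer cells of a type and less RNA per cell cannot be told apart.

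The members with the most counts were roX1 (3671), Hsromega (3604) and roX2 (2311), and none of them was called for infestation or tissue. roX1 (X:3857230-3862697, minus strand, opposite echinus) stood at 206, 210 and 232 in normal gland, 122, 124 and 211 in infested gland, 164 and 140 in normal 96 h blood, 149, 97.1 and 105 in infested 96 h blood, 145 and 171 in normal 120 h blood, and 228, 148 and 203 in infested 120 h blood. It was highest in normal gland and lowest in infested 96 h blood, and the groups mostly overlapped. The difference between ages in infested blood, log2 0.72 ± 0.23 (SE), had an adjusted p of 0.0312, a call that needed each of 4 libraries (infested 96 h blood replicates 2 and 3, infested 120 h blood replicates 1 and 3) and was not made with blood replicates 2 and 3 summed (adjusted p = 0.170).

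roX2 (X:11579065-11580432, plus strand) stood at 62.2, 47.7 and 52.2 in infested 96 h blood and at 90.1, 102 and 189 in infested 120 h blood. These groups did not overlap, and the rise was log2 1.23 ± 0.34 with adjusted p = 0.0140, lost without infested 96 h blood replicate 2 or infested 120 h blood replicate 3, or with blood replicates 2 and 3 summed (adjusted p = 0.123). In the other groups roX2 ranged from 46.3 in an infested gland to 124 in a normal gland. All 7 listed MSL complex genes were tested, and 0 of 7 passed in any of the 9 contrasts, where 0.283% to 24.4% of all genes passed. With 7 genes, counts of 0 say little at these shares. In the age contrast in infested blood the median log2 change of the MSL list was 0.13 against 0.07 over all genes tested. That list and the others used here were compiled with earlier results of these data known.

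Hsromega (3R:21296127-21317836, plus strand), which hosts mir-4951, stood at 235, 259 and 173 in normal gland and at 205, 195 and 130 in infested gland. In blood at 120 h it was 171 and 174 in normal larvae and 131, 97.7 and 75.8 in infested ones. The 120 h groups did not overlap, but the difference of log2 -0.76 ± 0.27 missed the threshold with adjusted p = 0.0603. Among 12 tested heat-shock protein genes 6 fell in that comparison and 0 rose, with a median log2 change of -1.17. Of all genes 8.06% were called lower and 11.4% higher there. Among 7 Hsromega speckle proteins 0 were called, a number that says little at these shares.

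**Figure D1:**
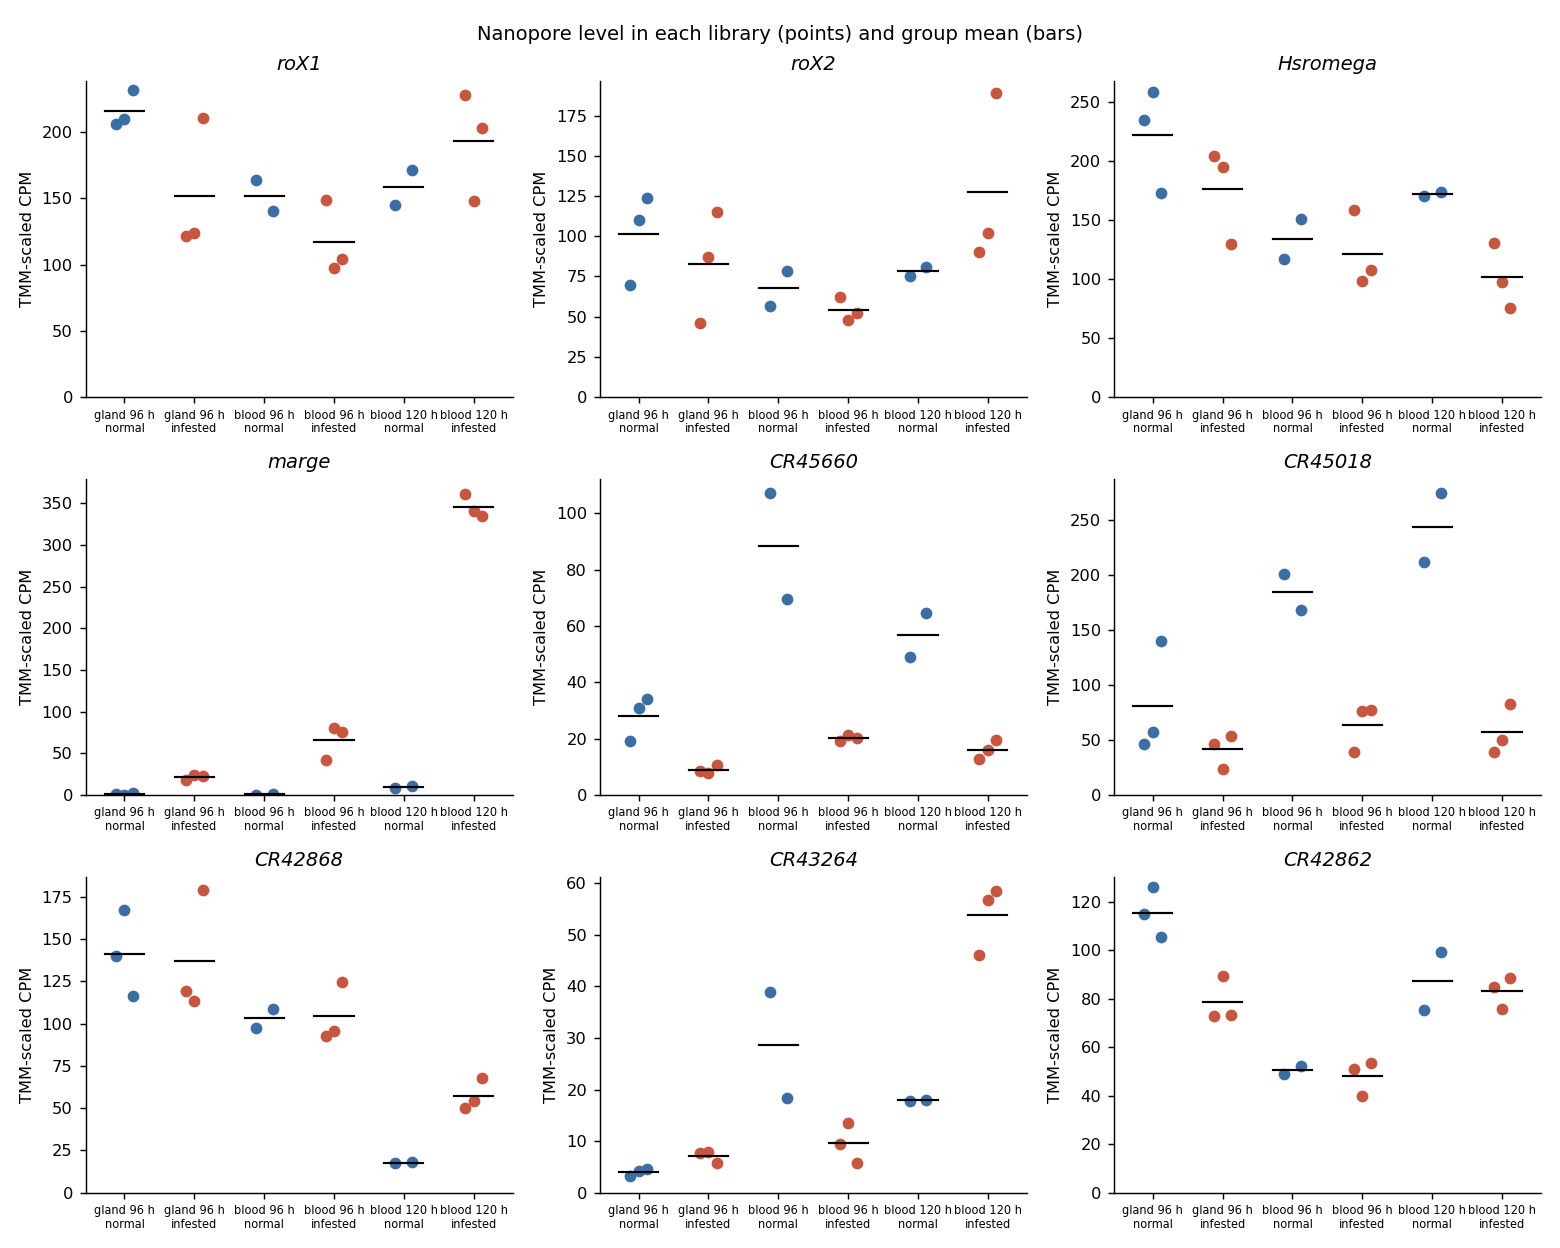
TMM-scaled CPM of 9 members in the 16 nanopore libraries of the barcoding kit. Each point is a library (blue normal, red infested) and each bar a group mean; marge is high in every infested group, CR45660 is low in every infested group, and CR42868 falls to 17.7 in normal blood at 120 h.

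At 24 h after infestation, 6 of the 73 tested members were called in the lymph gland, 2 higher and 4 lower (8.22% of members, against 5.13% of all genes tested, 3.29% higher and 1.84% lower). The median log2 change was -0.30 over the members and -0.00 over all genes, and it was -0.29 when a member without counts in a group was set at its bound and members with no fold were left out. marge (3L:14976626-14977631, minus strand, no overlapping gene) stood at 0.79, 0 and 1.83 in normal glands and at 17.8, 23.7 and 22.6 in infested glands. Its groups were far apart, with 3 counts in all the normal libraries, and the ratio of 71 to 3 counts, scaled for depth, was 24.1 (95% exact counting interval 7.93 to 120; adjusted p = 7.03e-05). CR46064 (2R) was the other member higher, at 21.4, 26.7 and 18.3 in normal and 51.0, 52.6 and 48.1 in infested glands, a log2 change of 1.17 ± 0.26 with adjusted p = 0.0131, a call lost without normal gland replicate 3 or infested gland replicate 1.

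CR45660 (3L:2629834-2630693, minus strand) lies within Pxn, which encodes the extracellular matrix protein peroxidasin made by plasmatocytes. It stood at 19.0, 30.9 and 33.9 in normal glands and 8.31, 7.89 and 10.6 in infested ones, so that the groups did not overlap. The log2 change was -1.59 ± 0.30 with adjusted p = 0.00422. Pxn itself, on the same strand, fell by 1.11 on the log2 scale (SE 0.24, adjusted p = 0.0113), and reads of the 2 genes may be shared. Summed over 7 plasmatocyte markers, Pxn among them, the level was 1734 to 2046 in normal and 634 to 920 in infested glands, and its part in the result was not tested.

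CR44042 (log2 -0.998 ± 0.25, adjusted p = 0.0307), CR42862 (-0.58 ± 0.16, adjusted p = 0.0457) and CR44268 (-2.07 ± 0.57, adjusted p = 0.0472) also fell in the infested gland. These 3 calls were weak: CR42862 and CR44268 were each lost when any of 13 of the 16 libraries was left out and CR44042 when any of 5 was. The count of 6 fell to 2 without infested gland replicate 1 and to 3 without infested gland replicate 2 or any normal gland replicate, and it was 3, without these 3 members, with DESeq2 or with blood replicates 2 and 3 summed. Midgut markers rose with infestation in these libraries, from a summed 0 to 2.75 in normal glands to 113 to 1878 in infested ones, where 5 of 9 listed genes had counts and alphaTry, Jon25Bii, Jon99Ciii and Amy-p had none. Their part in the result was not tested.

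In blood 24 h after infestation, 4 members were called, 1 higher and 3 lower (5.48% of members against 4.97% of all genes, 3.31% higher and 1.67% lower). marge was again the member that rose, from 0 and 1.31 in normal blood to 42.3, 80.0 and 75.4 in infested blood. The ratio was 85.3 with a counting interval of 15.2 to 3382, since normal blood held 1 count (adjusted p = 2.15e-05). CR45660 stood at 107 and 69.4 in normal and 19.0, 21.2 and 20.3 in infested blood, a fall of 2.11 on the log2 scale (SE 0.28, adjusted p = 2.78e-04). For Pxn the change there was log2 -0.42 ± 0.25 with adjusted p = 0.42. The plasmatocyte markers summed to 5816 to 5893 in normal and 2824 to 3785 in infested 96 h blood, and midgut markers to 260 and 261 against 2336 to 3311; the part of either in these results was not tested.

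CR43264 (X, opposite CG15765) stood at 39.0 and 18.3 in normal and 9.5, 13.5 and 5.80 in infested 96 h blood. The groups did not overlap, and the log2 change was -1.42 ± 0.36 with adjusted p = 0.0353. CR42861, also X-linked, changed by -1.31 ± 0.36 with adjusted p = 0.0493, and leaving out any of 13 libraries lost its call. CR43264 lost its call without any of 6 libraries, and neither was called by DESeq2 or with blood replicates 2 and 3 summed. Without normal 96 h blood replicate 2, infested 96 h blood replicate 3 or either normal 120 h blood library the count of 4 was 2.

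At 48 h after infestation, 15 members were called in blood, 10 higher and 5 lower (20.5% of members against 19.4% of all genes, 11.4% higher and 8.06% lower). The higher calls include members that reached the minimum only through infested 120 h blood, among them CR44567, CR44455 and CR9284. For such members the choice by counts favoured a higher level in that group. Nothing is read from the share of 20.5% against that of all genes. marge stood at 7.87 and 10.5 in normal blood and at 361, 341 and 335 in infested blood. Normal blood held 22 counts at 120 h against 1 at 96 h, a difference that was not called, and the change with infestation was log2 5.29 ± 0.35, with adjusted p = 7.65e-08. marge kept its calls in the gland and in blood at both ages whichever library was left out. Lamellocyte markers, all 6 detected, summed to 230 and 236 in normal and 9992 to 13360 in infested 120 h blood, and their part in the result was not tested. Ocho, a Notch-pathway gene of the Bearded family 586 bp away, had no counts in normal 120 h blood and a mean of 64.6 in infested blood (adjusted p = 9.645e-06), and it did not pass at 96 h in the gland or in blood.

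CR45660 fell in blood at 120 h as it had at 96 h, from 48.8 and 64.6 to 12.6, 15.8 and 19.5, a log2 change of -1.80 ± 0.28 with adjusted p = 3.24e-04. Pxn changed by -1.42 ± 0.25 (adjusted p = 9.62e-04), while the plasmatocyte markers summed to 4636 to 4716 in normal and 1588 to 2112 in infested 120 h blood, a part in the result that was not tested. CR45018 (X:13304005-13308004, plus strand), inside the inositol trisphosphate kinase gene IP3K2, stood at 211 and 275 in normal and 38.8, 50.2 and 82.7 in infested blood. These groups were apart by more than their ranges, and the fall was 2.09 on the log2 scale (SE 0.42, adjusted p = 0.00266), with adjusted p = 0.0716 when blood replicates 2 and 3 were summed. Its 96 h values, 201 and 168 against 38.9, 75.9 and 76.9, did not overlap either, with a log2 change of -1.53 ± 0.43 and adjusted p = 0.0561. IP3K2 on the same strand did not pass in blood at 120 h (log2 -0.80 ± 0.35, adjusted p = 0.127).

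Hosts of microRNAs were among the members that fell at 120 h. CR43650, which holds mir-8, stood at 35.7 and 46.6 in normal and 15.7, 14.5 and 12.6 in infested blood (log2 -1.48 ± 0.32, adjusted p = 0.00429). CR43857, which holds mir-275, stood at 18.4 and 30.05 against 8.38, 9.24 and 4.59 (log2 -1.58 ± 0.46, adjusted p = 0.0252). Neither set of groups overlapped. Of the 10 host members 8 were tested, 2 fell and 0 rose in this comparison (8.06% of all genes were lower and 11.4% higher), and 0 were called for infestation at 96 h in the gland or in blood, where 5.13% and 4.97% of all genes were called. With 8 genes tested, counts of 0 say little at these shares. CR44268, opposite CG12567, fell by 1.83 on the log2 scale (SE 0.53, adjusted p = 0.0246).

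Among the members that rose at 120 h, CR42868 (2R:22666359-22666764, plus strand, opposite CR45269) went from 17.3 and 18.0 to 50.3, 54.1 and 67.7 (log2 1.69 ± 0.28, adjusted p = 4.67e-04). CR43900, on the same strand as the calmodulin gene Cam and overlapping it, went from 12.6 and 12.02 to 26.2, 67.3 and 57.4 (log2 2.03 ± 0.42, adjusted p = 0.00323), and Cam rose by a log2 change of 2.24 ± 0.30. CR44567 (3L), 132 bp from CG7497, had 0 counts in both normal libraries and 53 in the infested ones, at 13.6, 15.8 and 18.4, at least 13.6-fold higher against a floor of 3 counts over the group (adjusted p = 0.00471). CR44138 (3R, opposite CG9813) went from 4.72 and 1.5 to 23.04, 22.4 and 16.1 (log2 2.44 ± 0.60, adjusted p = 0.0102). In these 4 members every infested library lay above every normal one.

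The remaining named members that rose, CR43264 (log2 1.58 ± 0.32, adjusted p = 0.00256), CR44455 (2.32 ± 0.53, adjusted p = 0.0106) and CR9284 (1.98 ± 0.46, adjusted p = 0.0121), went the other way in the Illumina libraries. There CR43264 had 40.1 CPM in normal and 4.47 in infested 120 h blood, CR44455 had 47.1 and 5.15, and CR9284 had 166 and 13.6. Of the 15 called members 9 had at least 5 CPM in 1 of the 2 Illumina libraries, 5 with the sign of the nanopore change and 4 with the opposite sign, the fourth being CR43356, named after its values were seen. The direction for these 4 members therefore rests on the nanopore libraries. The count of 15 was 6 without normal 120 h blood replicate 2 and 8 without replicate 3, since either removal leaves 1 normal library, assumed to vary like the others. CR43264, CR43900 and CR44567 lost their call without normal 120 h blood replicate 2, CR44138 without either normal 120 h library, and CR44455, CR9284, CR43857 and CR44268 without any of 3 to 4 libraries. Summing blood replicates 2 and 3, which also leaves 1 normal library, gave 5 calls. CR45018, CR43650 (adjusted p = 0.105), CR43900 (adjusted p = 0.0862), CR44138, CR44455, CR9284, CR43857 and CR44268 were among those lost, and DESeq2 did not call CR43857 or CR44268.

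**Figure D2:**
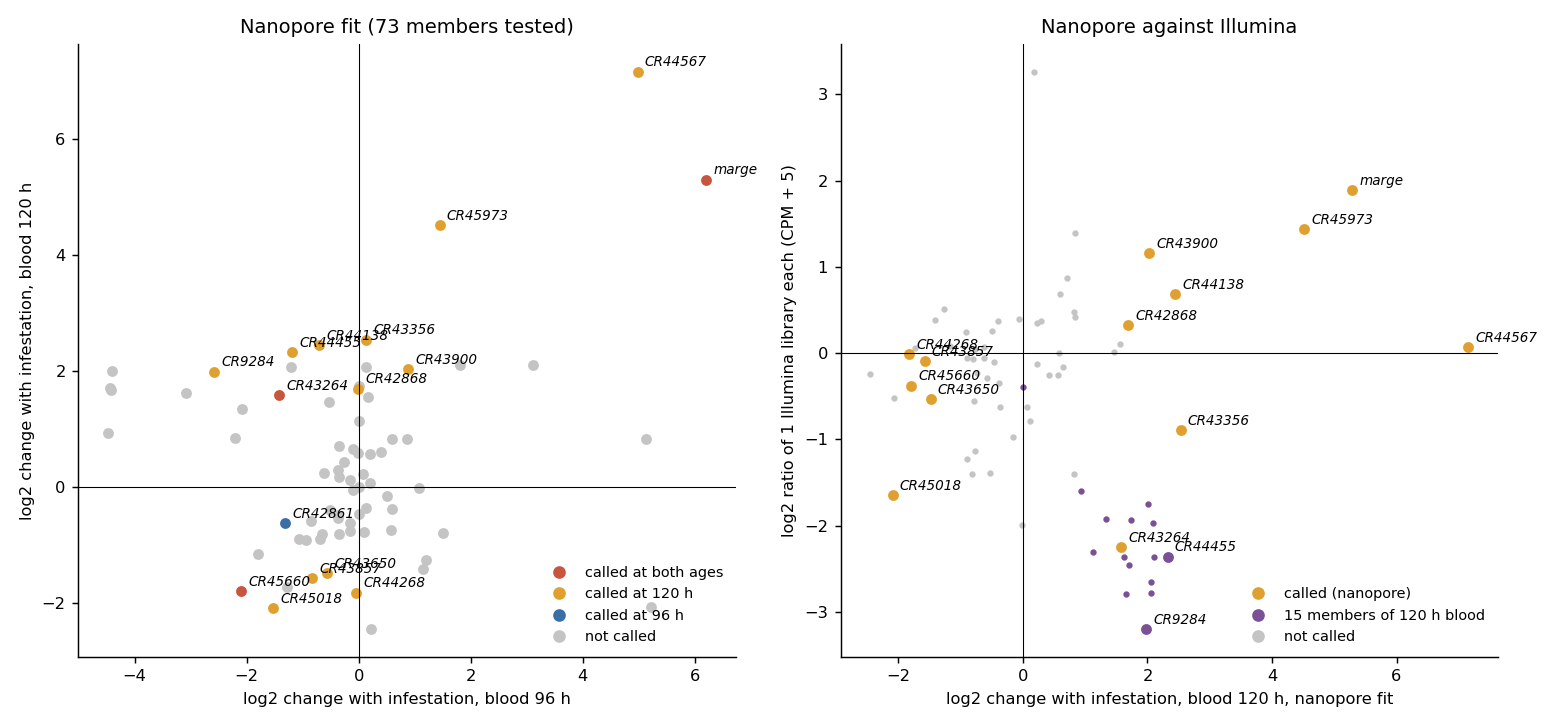
Left, log2 change with infestation in blood at 96 h (x) and 120 h (y) for the 73 tested members; right, the 120 h nanopore change (x) against the log2 ratio of the single Illumina libraries, each CPM plus 5 (y). marge lies far to the upper right, CR45660 at the lower left and CR43264 left of 0 but above it, while purple points, the 15 members found mainly in 120 h blood, lie below 0 in Illumina; CR44567 has no counts in normal blood, so its plotted change depends on the prior count.

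The change with infestation differed by age in blood for 2 members (2.74% of members against 1.99% of all genes, 0.904% higher and 1.09% lower), both with the more positive log2 change at 120 h. CR43264 fell at 96 h and rose at 120 h, and the difference between the effects was log2 2.999 ± 0.48 with adjusted p = 0.00633. It lost its call without normal 120 h blood replicate 2, which left no member called. CR42868 was close to level with infestation at 96 h (97.6 and 109 in normal, 92.4, 95.4 and 125 in infested blood) and higher at 120 h. The difference was 1.70 ± 0.36 with adjusted p = 0.0249, lost when any of 7 libraries was left out. Without infested 96 h blood replicate 1 the count was 5, and with blood replicates 2 and 3 summed it was 0 (adjusted p = 0.152 for CR43264 and 0.391 for CR42868).

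Between blood and lymph gland, the infestation effect differed for 0 of 73 members by edgeR, with 6 at an unadjusted p under 0.05, against 0.283% of all genes called (0.24% with a higher effect in blood and 0.0424% with a lower), and DESeq2 also gave 0. Without infested 120 h blood replicate 3 the count was 1. marge and CR45660 were called in both tissues in the same direction, and for neither was a difference between tissues called.

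In normal larvae at 96 h, 7 members differed between blood and gland, 4 higher in blood and 3 lower (9.59% against 7.52% of all genes, 4.8% higher and 2.71% lower). CR45321 (2R:9445265-9445784, minus strand, no overlapping gene) stood at 2.38, 5.85 and 8.25 in gland and 37.1 and 68.1 in blood, a log2 difference of 3.29 ± 0.50 with adjusted p = 5.85e-04. CR43264 was at 3.18 to 4.58 in gland and 39.0 and 18.3 in blood (log2 2.77 ± 0.41, adjusted p = 4.85e-04). CR44138 was at 1.59, 0 and 1.83 in gland and 27.3 and 18.3 in blood (log2 4.18 ± 0.71, adjusted p = 0.00152), and CR45660 was higher in blood by 1.65 ± 0.27 (adjusted p = 0.00100), as was Pxn (1.31 ± 0.25). None of these groups overlapped.

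The members lower in blood were alphagamma-element:CR32865, CR45269 and CR42862. alphagamma-element:CR32865 (3R:12475336-12478267, minus strand) stood at 31.0, 26.7 and 40.3 in normal gland, 16.02, 18.4 and 9.19 in infested gland, and 0 to 4.35 in all 10 blood libraries. Gland and blood did not overlap in either condition: normal blood held 3 counts, and the ratio was 13.8 with a counting interval of 4.6 to 67.8 (adjusted p = 0.00559, lost without normal 96 h blood replicate 2). The listed heat-shock protein genes did not share that direction, with 2 of 12 higher in normal blood, 7 of 12 higher in infested blood, and 0 lower in either. Of all genes 4.8% were higher and 2.71% lower in normal blood, and 7.77% and 3.29% in infested blood. CR42862 (3L:224106-230964, plus strand, overlapping CG33229) stood at 115.1, 126 and 105 in gland and 48.8 and 52.4 in blood, a log2 difference of -1.19 ± 0.19 with adjusted p = 0.00110, and CR45269 differed by -1.82 ± 0.34 (adjusted p = 0.00302, lost without normal 96 h blood replicate 3).

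In infested larvae at 96 h, 9 members differed, 6 higher in blood and 3 lower (12.3% against 11.1% of all genes, 7.77% higher and 3.29% lower). marge was higher in blood by 1.66 ± 0.28 on the log2 scale (adjusted p = 8.55e-04). CR45321 (2.44 ± 0.46, adjusted p = 0.00221), CR44138 (3.16 ± 0.65, adjusted p = 0.00452) and CR45660 (1.13 ± 0.31, adjusted p = 0.0257) were higher in blood as they were in normal larvae, and CR42862 (-0.70 ± 0.17, adjusted p = 0.0125) and alphagamma-element:CR32865 (-2.36 ± 0.61, adjusted p = 0.0202) lower. CR32368, at 1.78, 0 and 2.83 in gland and 13.8, 15.9 and 26.1 in blood, was called at log2 3.10 ± 0.56 (adjusted p = 0.00162). CR42715, 426 bp from the antimicrobial peptide gene Mtkl, was called at 3.23 ± 0.65 (adjusted p = 0.00367), and Mtkl was higher too by 2.02 ± 0.36. CR46064 was lower in blood by 1.04 (log2 -1.04 ± 0.26, adjusted p = 0.0156). Without infested 96 h blood replicate 2 the count of 9 was 5, and CR45660, CR46064 and alphagamma-element:CR32865 each lost the call without that library or 2 or 3 others. CR42862 lost it without that library alone. With blood replicates 2 and 3 summed, CR42862 and CR45660 (adjusted p = 0.0766) were not called, and with DESeq2 CR45660 was not.

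cherub was not called in either tissue comparison, although its groups did not overlap in either. It stood at 0, 5.85 and 1.83 in normal gland and 41.0 and 49.8 in normal 96 h blood (log2 4.11 ± 1.34, adjusted p = 0.0801), and at 0, 0 and 16.96 against 65.6, 18.2 and 23.2 in infested larvae (adjusted p = 0.209). Its replicates were uneven, and infested 120 h blood gave 34.6, 1.98 and 0. The Illumina libraries had 197 CPM in normal and 196 in infested 96 h blood, 4.53 and 86.2 in normal and infested 120 h blood, and 0.791 in the infested gland. noe was uneven in the same way, from 1.45 to 30.2 within infested 96 h blood. For cherub and noe alike, replicate 1 was the highest library in each infested blood group.

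With age in normal blood, 4 members were called, 2 higher and 2 lower at 120 h (5.48% against 4.23% of all genes, 2.2% higher and 2.02% lower), while the median log2 change was 0.56 over the members (0.54 with bounds) and 0.09 over all genes. The member median includes 15 members described below that reached the minimum only through 120 h blood, with a median of 2.58. It was 0.35 over the other 58 tested members. Nothing is read from these medians against that of all genes. CR42868 stood at 97.6 and 109 at 96 h and at 17.3 and 18.0 at 120 h, a fall of 2.55 on the log2 scale (SE 0.29, adjusted p = 1.32e-04). The coding gene 214 bp away, CG42867, which CR45269 overlaps on the opposite strand, rose by a log2 change of 3.89 ± 0.64 (adjusted p = 0.00226). CR44138 fell by 2.56 (SE 0.66, adjusted p = 0.0421), the mir-282 host CR43626 rose from 25.4 and 26.2 to 82.4 and 75.1 (log2 1.61 ± 0.42, adjusted p = 0.0411), and CR44133, inside the GATA factor gene srp, rose from 52.7 and 48.5 to 94.97 and 90.1 (0.88 ± 0.23, adjusted p = 0.0425). The last 3 calls were each lost when any of 9 libraries was left out, so that without any of the 4 normal blood libraries, or without infested 120 h blood replicate 2, CR42868 was the member still called. The same held with blood replicates 2 and 3 summed, and DESeq2 did not call CR44133.

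With age in infested blood, 27 members were called, 26 higher and 1 lower at 120 h (37.0% of members against 24.4% of all genes, 15.1% higher and 9.33% lower). The member that fell was CR42868, from 92.4, 95.4 and 125 to 50.3, 54.1 and 67.7 (log2 -0.85 ± 0.21, adjusted p = 0.00703; 0.0711 with blood replicates 2 and 3 summed). marge rose by 2.39 ± 0.23 (adjusted p = 1.75e-05) and CR43264 by 2.38 ± 0.30 (adjusted p = 7.10e-05), each with every 120 h library above every 96 h one. The share of 37.0% is raised by members that reached the minimum only through 120 h blood, among them 15 described below. Nothing is read from this share against that of all genes. Of the 27 called members 16 reached 5 CPM in 1 of the 2 infested Illumina blood libraries, and all 16 had the sign of the nanopore change there.

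**Figure D3:**
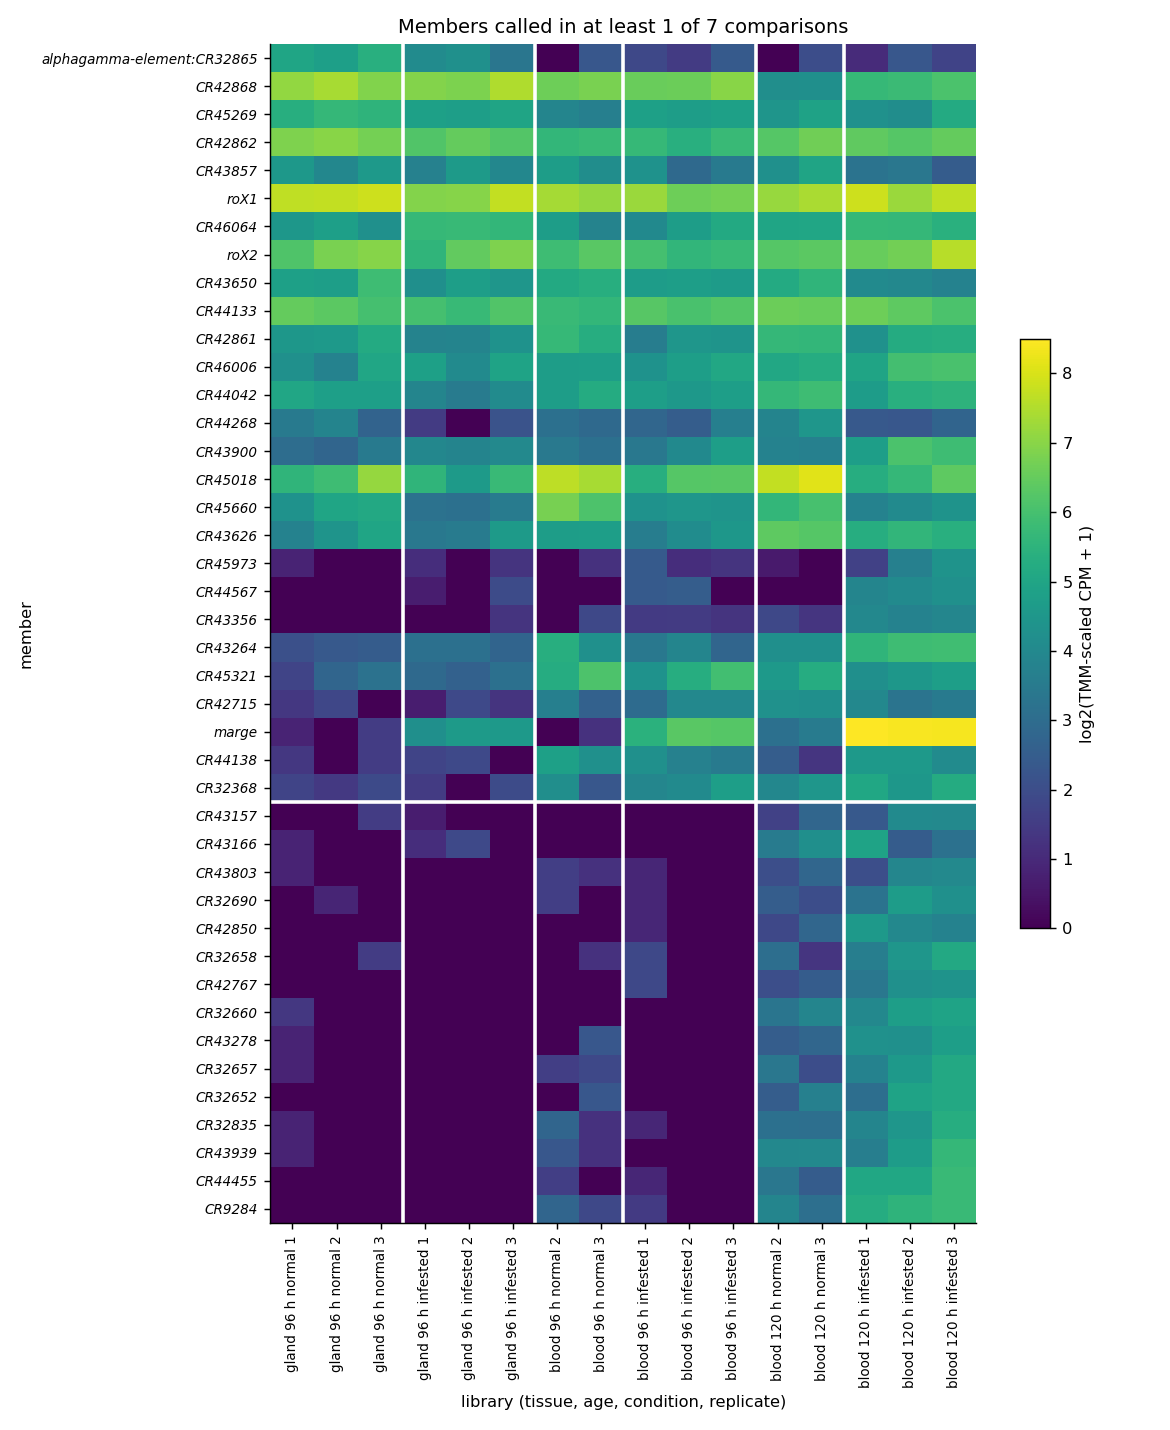
log2(TMM-scaled CPM + 1) of the 42 members called in at least 1 of the 7 comparisons (rows) in 16 libraries (columns, white lines between groups). Rows above the horizontal line are ordered from gland to blood; the 15 rows below it have at least 90% of their counts in 120 h blood and are dark in every 96 h group.

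A large part of these 26 higher members was a set seen almost solely at 120 h. In 15 members, at least 90% of all counts lay in the 5 libraries of 120 h blood, which is 14.9% of the members against 2.85% of the 7652 genes with at least 50 counts, while those 5 libraries held 25.2% of all counts. They were CR44455, CR42850, CR32660, CR32652, CR43939, CR9284, CR32690, CR32657, CR42767, CR43278, CR43166, CR43157, CR32835, CR32658 and CR43803, 8 of them X-linked. They were chosen by these counts, so the share is a description without a test. Together they had 1398 counts in 120 h blood, 39 in 5 libraries of 96 h blood and 17 in 7 gland libraries.

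CR9284 (2R:21803402-21804338, plus strand) stood at 5.85 and 2.62 in normal 96 h blood, 1.73, 0 and 0 in infested 96 h blood, 13.6 and 7.51 in normal 120 h blood, and 37.7, 45.5 and 52.8 in infested 120 h blood. CR43939 (3L) had no count in infested 96 h blood and 92 in infested 120 h blood, at least 32.6-fold higher. All 15 were among the 26 members higher with age in infested blood. With age in normal blood 0 of 15 were called, beside 2.2% of all genes called higher. In normal blood too, both 120 h libraries lay above both 96 h libraries in all 15, with log2 changes of 1.15 to 6.94. Since the set was chosen by its counts at 120 h, and its few counts elsewhere mean that it reached the minimum only through that age, a higher level at 120 h was fixed by the choice and these calls are a description. Of the 58 tested members outside this set, 11 were called higher and 1 lower with age in infested blood, with a median log2 change of 0.21. These 58 still hold members that would miss the minimum without 120 h blood. CR43356 had 51 counts there and 11 elsewhere, and CR44567 had 53 and 18. The numbers for the 58 are therefore a description too.

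Markers of the male germline moved with this set. The summed level of the 15 members was 107 and 114 in normal 120 h blood, 238, 335 and 441 in infested 120 h blood, 0 to 23.4 in 96 h blood and 0 to 6.35 in 96 h gland. Summed over 8 listed male germline genes, of which 7 had any count, it was 38.8 and 48.1, 94.3 to 172, 2.94 to 19.6 and 0 to 5.26 in the same groups. The sperm-tail gene dj had 114 counts and Mst87F 354 in infested 120 h blood, while aly and topi had none in normal 120 h blood. Of the listed genes, 3 to 5 were detected per normal 120 h blood library and 5 to 6 per infested one. Only 2 passed the filter on low counts. In the Illumina libraries both sums were highest in normal rather than infested 120 h blood: 1040 and 127 CPM for the 15 members and 318 and 54.8 for the germline list. In normal blood the germline was not the only list higher at 120 h. In nanopore libraries, salivary gland markers summed to 123 and 130 in normal 120 h blood and to 0 to 9.17 at 96 h. In infested blood they summed to 8.04 to 643 (median 11.9) at 120 h and 5.30 to 25.1 at 96 h, which overlap. Fat body markers summed to 3457 to 4085 in normal 120 h blood and 451 to 1298 at 96 h. In infested blood they summed to 588 to 3464 and 1444 to 2059, which overlap too. The part of any of these lists in the result was not tested.

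**Figure D4:**
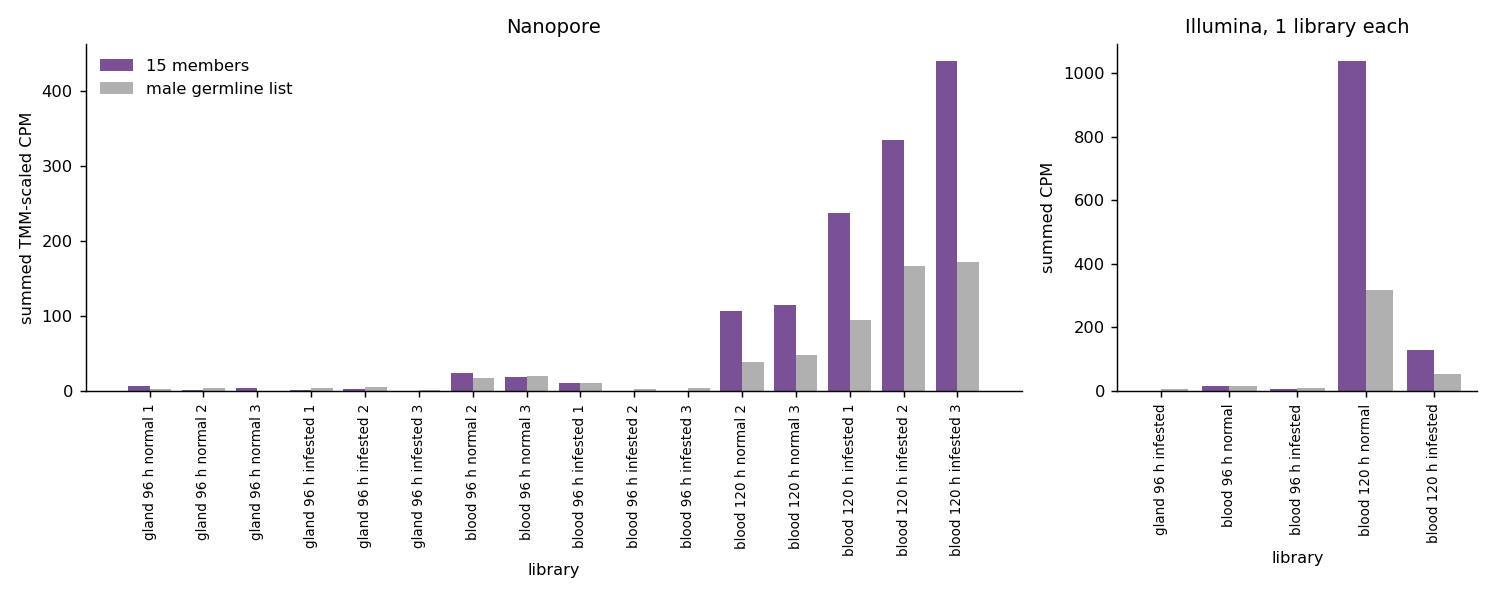
Summed level of the 15 members with at least 90% of their counts in 120 h blood (purple) and of the male germline list (grey), in TMM-scaled CPM for the 16 nanopore libraries (left) and in CPM for 5 Illumina libraries (right). Both sums are high in 120 h blood, with the infested libraries higher in nanopore and the normal library higher in Illumina.

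The single 120 h gland library was set beside the 96 h normal glands on plain CPM, without a test, because age and kit cannot be told apart there. It lay above the range of the 3 normal 96 h glands for 23 members, within it for 61 and below it for 17, against 12.7%, 41.4% and 45.9% of 7652 genes. Its own counts helped to choose the members. Over the 88 members that reached 50 counts without that library, the numbers were 19, 53 and 16 (21.6%, 60.2% and 18.2%), against 12.2%, 41.1% and 46.8% of 7447 genes chosen the same way. Members with few or no gland reads count as within, such as CR9284 and CR44455 at 0 in every normal gland library. Low counts also widen a range, so nothing is read from these shares against those of all genes. CR45660 was at 66.5 against 19.5 to 29.6 and CR43626 at 57.4 against 13.0 to 27.2. roX1 was below its range, at 120 against 192 to 212, and roX2 above, at 129 against 71.6 to 108. alphagamma-element:CR32865 was at 9.0 against 24.5 to 35.2.

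Levels of different genes were set beside each other per length, in the Illumina TPM values. CR42862 had the highest mean over the 5 libraries at 343 TPM, followed by marge at 100, roX1 at 89.8 and CR43264 at 79.7, and the median member had 4.68 TPM. marge reached this mean through infested 120 h blood, with 369 TPM there, 78.5 in normal 120 h blood, 38.2 and 0.310 in infested and normal 96 h blood and 15.3 in the infested gland. In CPM its infested library was the higher of the pair at both ages, 15.2 against 0.122 at 96 h and 149 against 36.6 at 120 h. CR45018 had 160.7 and 47.9 CPM in normal and infested 120 h blood, the direction of the nanopore libraries.

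In transcript-level counts, 22 members with more than 1 annotated transcript had at least 20 counts in every library of some group. For many of them, CR43241 and CR46006 among these, that group was only the 120 h gland, a single deep library of another kit. For roX2 the 562 nt transcript FBtr0073514 took 72.5% to 91.6% of the estimated transcript counts in the libraries that passed, and for CR45018 the transcript FBtr0344173 took 84.6% to 97.8%. The Hsromega transcript FBtr0346801 (2776 nt) took 28.8% to 67.8%, with no order between groups beyond their ranges. The share of roX1 transcript FBtr0070634 was 42.1% to 47.5% in every infested library. It was 0% to 42.4% in normal 96 h gland, 42.4% and 100% in normal 96 h blood and 46.6% and 78.6% in normal 120 h blood. Some normal libraries thus lay within the infested range. The estimated counts were as few as 28.3 in a normal 96 h blood library, so no difference with infestation is read from these shares.

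The nearest coding gene of a called member was itself called in some cases. Some pairs overlap on the same strand and may share reads, and the numbers are small. Nothing is read from these counts against the shares of all genes given in brackets. In blood at 120 h, 9 members called for infestation had a tested nearest coding gene. Of these genes 4 were called (19.4% of all genes), all in the member's direction. With age in infested blood 8 of 15 were called (24.4%), 7 in the same direction, and with infestation in the gland 1 of 5 was (5.13%), Pxn beside CR45660. With infestation in 96 h blood 0 of 3 were called (4.97%). With age in normal blood 1 of 2 was (4.23%), in the opposite direction. Between blood and gland 1 of 3 was called in normal larvae (7.52%) and 3 of 6 in infested larvae (11.1%), all in the member's direction. CR44567 and CG7497 were called together at 120 h, where CG7497 rose from a mean of 0.262 to 87.0. CR42868 and CG42867 moved in opposite directions with age in both normal and infested blood.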

How the data were processed

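Nanopore gene counts and transcript counts were used as deposited by the authors, 1 table of each kind per library. Transcript tables hold estimated counts that need not be whole. For Illumina, the deposited values were expected counts with TPM, FPKM and percent isoform columns; FPKM and percent were not used. The submitters' processing notes name minimap2 2.17-r941, StringTie 2.1.3, STAR 2.5.3a and RSEM 1.3.1; the genome build of the files is not given in the sources used here, and positions are from BDGP6.54. Members and gene lists were chosen with earlier results of these data known.

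Of 13853 genes with a count, 84 identifiers had no symbol in the tables used, CR43334 (467 counts) among them. The 16 libraries of the barcoding kit were fitted in edgeR 4.0.16 (quasi-likelihood, TMM, filterByExpr with a minimum count of 10, 6 groups, no replicate block), with Benjamini-Hochberg adjustment over 7076 genes and 10 residual degrees of freedom. The fit was tested on simulated data. Folds against groups at 0 use a floor of 3 counts over the group. Illumina ratios used CPM from the expected counts plus 5, with 1 library per group and no test. Alternatives were relative log expression scaling, no filter, DESeq2 1.42.0, a replicate block, blood replicates 2 and 3 summed, each library left out, other membership minimums and a pseudocount of 1. Rows counting ambiguous or unassigned reads (0.503% to 1.31% and 0.383% to 0.788% of gene counts) were left out.

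Members named are those with a name, the 10 with the most counts, those next to the minimum and, per comparison, up to 8 higher and 8 lower calls with the smallest p. The correlation of deviations between same-numbered libraries was over 0.1 in all 3 pairs of the age contrast in infested blood (0.26 to 0.45) and in not every pair of the others, so the numbers pair there by the data. With the replicate block that contrast had 29 called members, 26 of the 27 among them. Chi-square per degree of freedom was 2.67 to 3.18 between blood replicates 2 and 3 and 10.1 to 20.4 between replicate 1 and either. No pair of libraries was within sampling noise. Normal blood had no replicate 1, so in the blood infestation comparisons what sets replicate 1 apart is partly mixed with infestation.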

Additional observations from a re-analysis of the deposited data

Results flagged for a closer look

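The change with infestation in blood differed between 96 h and 120 h larvae for a pair of members, by a test of the difference itself. For CR43264 the difference was 2.999 on the log2 scale (SE 0.48, edgeR adjusted p = 0.00633): it was lower in all 3 infested libraries at 96 h and higher in all 3 at 120 h than in either normal library of that age. Its Illumina values fell with infestation at 120 h, from 40.1 to 4.47 CPM. For CR42868 the difference was 1.697 (SE 0.36, adjusted p = 0.0249): in normal blood it fell between the ages by more than in infested blood. The summed male germline markers were 17.6 and 19.6 in normal and 2.94 to 11.2 in infested 96 h blood, and 38.8 and 48.1 against 94.3 to 172 at 120 h, and their part in either result was not tested.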

How the results depend on the processing

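No named change that was called in the main fit reversed its sign, and changes of sign among uncalled values were not counted. Of 129 named values, relative log expression scaling lost 1 call, dropping the filter lost 2 and gained 20, DESeq2 lost 9 and gained 1, the replicate block gained 6 and lost 0, and summing blood replicates 2 and 3 lost 24. Leaving out each library in turn lost 124 calls and gained 23 among 2064 values. The count of called members moved by over 1.5 times as follows. For infestation in the gland it was 6, and 3 with DESeq2 or with blood replicates summed (2 to 6 with a library left out). For blood at 96 h it was 4, 7 without the filter and 2 summed (2 to 6); for blood at 120 h 15, 23 without the filter and 5 summed (6 to 18). For tissue in normal larvae it was 7, and 14 without the filter (6 to 9), and in infested larvae 9 (5 to 11). For age in normal blood it was 4, 12 without the filter and 1 summed (1 to 5), and in infested blood 27, 17 summed (21 to 30). The effect by tissue gave 0, and 3 without the filter (0 to 1), and that by age 2, 11 without the filter, 4 with DESeq2 and 0 summed (0 to 5). The replicate block gave 6, 5, 18, 9, 11, 5, 29, 0 and 3 in the same order, and, outside the age contrast in infested blood, not every pair of same-numbered libraries had a correlation of deviations over 0.1. A minimum of 20 counts gave 172 members, 200 gave 39. With a pseudocount of 1 in place of 5 CPM, 2-fold Illumina ratios numbered 6 for 2 (infestation at 96 h), 46 for 29 (at 120 h), 22 for 10 (age, infested) and 8 for 1 (tissue). A minimum of 50 in place of 20 transcript counts left 12 of 22 members of more than 1 transcript with isoform shares. The cause of these differences was not tested. Depth limits the members: 36 had fewer than 100 counts over all libraries.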

Other observations

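For 7 of the 101 members (6.93%, against 4.74% of 7652 genes) a library was listed at 0 where its replicates led to at least 10 counts being expected. CR44999, which spans the Myc region on X, was listed at 0 in an infested gland, a normal 96 h blood and an infested 120 h blood library with 12.9, 26.1 and 16.4 counts expected. Such an expectation assumes that replicates hold like levels, and whether these zeros are low expression was not tested. The others were cherub, whose expected counts in an infested gland rest on 1 library, and CR45939, CR42549, CR30055, CR45184 and CR44779, named after their values were seen.

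The core proteins of box C/D and H/ACA small nucleolar ribonucleoproteins, partners of the small RNAs that a host such as CR45184 carries, fell in blood at 120 h with infestation in 6 of 7 tested genes, and 0 rose, beside 8.06% of all genes called lower. Among nonsense-mediated decay genes 0 of 5 tested were called in any of the 9 contrasts, where 0.283% to 24.4% of all genes were called. With 5 genes, counts of 0 say little at these shares.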
